A study of Rattus norvegicus with 108 samples.

Results

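The neurons described here are the cells of the rat dorsal dentate gyrus that the authors' annotation calls ExcitNeuron. They were chosen by that name alone, and they number 55 of the 1289 annotated dorsal cells, which carry 12 cell type names. The other neurons of the table are 119 Granule, 72 Mossy and 147 InhibNeuron cells. Dorsal dentate gyrus was micropunched from male Long-Evans rats, 2 months old at the start, that took fluoxetine at 18 mg/kg (FT) or plain water (Sham) for 6 weeks. Fluoxetine is a selective serotonin reuptake inhibitor, and no allele or transgene was involved. Per the study's methods each replicate pooled tissue of 3 animals, so a replicate and not a cell was the unit of comparison. There were 4 FT replicates, numbered 1, 2, 4 and 5, and 5 Sham replicates, spread over 13 reactions of droplet 3′ RNA counting (10x Genomics). The labels speak of nuclei and the study's methods of both whole-cell and nuclear suspensions, and which reaction held which is not given in the sources used here. Summed unique molecular identifiers (UMIs, 1 per captured RNA molecule) came to between 583739 and 885307 per FT replicate over 99 to 197 cells, and to between 490584 and 1105869 per Sham replicate over 100 to 230 cells.

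Excitatory neurons of the hippocampal formation release glutamate, which the vesicular transporter Slc17a7 (VGLUT1) loads into synaptic vesicles. In the dentate gyrus they comprise granule cells, which carry the transcription factor Prox1, and the mossy cells of the hilus. Pyramidal cells of the neighbouring CA fields express the transcription factor Neurod6, which mature granule cells largely lack. Interneurons make GABA with the enzymes Gad1 and Gad2 and load it into vesicles through Slc32a1.

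The ExcitNeuron cells were spread unevenly over the replicates. FT replicate 2 alone held 26 of the 31 FT cells, FT replicate 1 held 3, and FT replicates 4 and 5 held 1 each. Sham replicates 1, 3, 4 and 5 held 6, 5, 9 and 4 cells. Sham replicate 2 held 0 of its 138 cells, which allows a share of up to 2.17% by the limit of 3 counts and 2.64% by the exact interval plotted (counting error only). As shares of all dorsal cells, the FT replicates stood at 2.10%, 13.2%, 0.763% and 1.01%, and the Sham replicates at 2.61%, 0%, 5%, 6.67% and 3.45%. FT replicate 2 lay above every other replicate, and the remaining FT and Sham replicates overlapped.

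Within FT replicate 2 and Sham replicate 1, most or all of the cells came from the second reaction. In FT replicate 1, the first reaction gave 2 of 120 cells and the second 1 of 23. In FT replicate 2, the second reaction gave 22 of its 80 cells (27.5%, exact 95% binomial interval 18.1 to 38.6%) and the first gave 4 of 117 (3.42%). In Sham replicate 1, all 6 cells came from the second reaction. The second reaction of Sham replicate 2 held 33 neurons, of which 0 were ExcitNeuron cells. Over the 4 replicates with 2 reactions, the share was 9.10% ± 12.4 (SD, n = 4) in the second and 1.27% ± 1.63 in the first, a difference within the spread (exact sign-flip permutation test, two-sided, p = 0.25, where the smallest possible is 0.125). Without FT replicate 2 the difference fell from 7.83 to 2.41 percentage points. Of the 3 barcodes that occurred in more than 1 dorsal reaction, 0 belonged to ExcitNeuron cells.

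**Figure D1:**
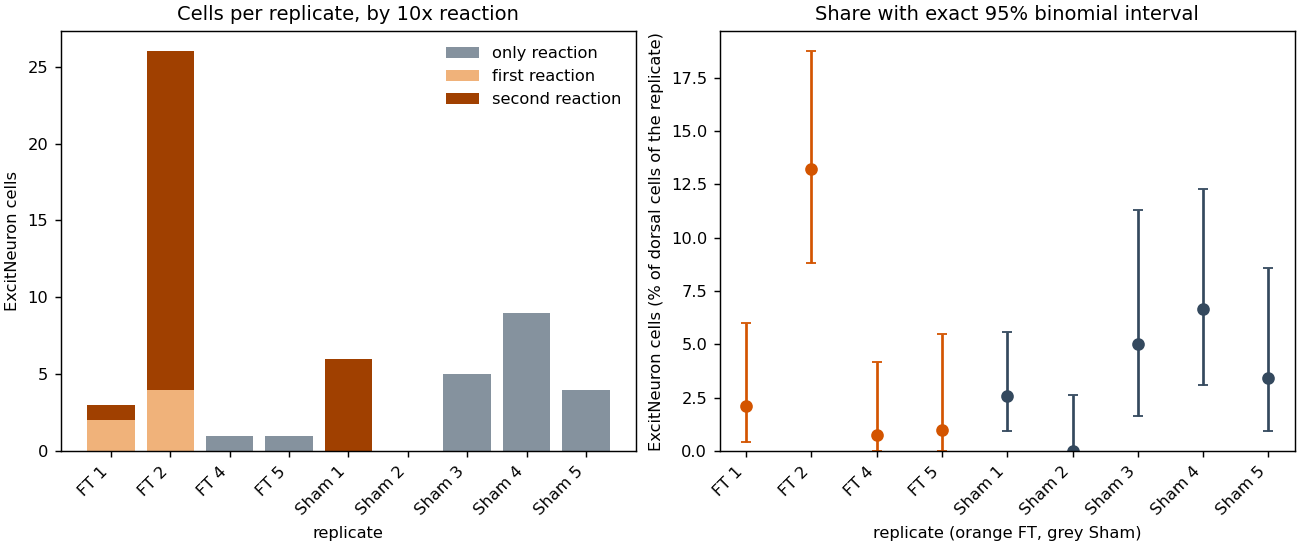
ExcitNeuron cells per replicate. Left, bars count cells, stacked by first, second or only 10x reaction; right, points give the share of all dorsal cells of the replicate in percent with its exact 95% binomial interval (orange FT, grey Sham). FT replicate 2 stands at 13.2% and takes 22 of its 26 cells from 1 reaction, and Sham replicate 2 stands at 0.

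The label was checked against its markers. Slc17a7 was detected in 40 of the 55 cells (72.7%, exact 95% interval 59.0 to 83.9%) and Neurod6 in 24 (43.6%, 30.3 to 57.7%). Both genes were detected in 20 cells and at least 1 of them in 44. The 11 cells with neither were shallow, with a median of 2883 UMIs against 6372 over all 55, and 9 of them came from the second reaction of FT replicate 2. A vesicular glutamate transporter gene was therefore present in most of these cells, but Slc17a7 did not set them apart from every other neuron.

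Slc17a7 was as frequent among the InhibNeuron cells, at 77.6%, and less so among Granule (25.2%) and Mossy cells (11.1%). In Microglia1 cells, which should lack the gene and were about as deep (median 6669 UMIs), the share was 10.3%, so the Mossy share is read as background. When every cell was thinned to 1500 UMIs and shallower cells were left out, the Slc17a7 shares were 30.6% of 49 ExcitNeuron, 30.6% of 147 InhibNeuron, 25.9% of 58 Granule, 0% of 68 Mossy and 4.95% of 101 Microglia1 cells. Slc17a7 thus marked 3 of the 4 neuron classes at matched depth.

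Neurod6 was more particular to the ExcitNeuron cells. Unthinned, it was detected in 43.6% of them against 8.40% of Granule, 4.76% of InhibNeuron, 1.39% of Mossy and 0.935% of Microglia1 cells. At 1500 UMIs its shares were 18.4%, 3.45%, 1.36%, 0% and 0.99% in the same order. Sv2b, a glycoprotein of synaptic vesicles, had the same order, with thinned shares of 22.4%, 5.17%, 4.08%, 0% and 0.99%. These genes may have entered the authors' clustering, so the differences are given as descriptions and not as tests.

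A pair of cells carried GABA markers in place of Slc17a7 and Neurod6. They are 1 cell of the first reaction of FT replicate 2 (2058 UMIs) and the single cell of FT replicate 4 (1244 UMIs). Between them they held all 9 Slc32a1 UMIs found in ExcitNeuron cells (7 and 2), along with 2 and 2 UMIs of Gad1 and 2 and 4 of the neuropeptide gene Npy. Both were counted as ExcitNeuron, as annotated, and results that rest on them are given with and without them.

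The labels of the classes used for comparison were less well met by their markers. The 147 InhibNeuron cells held 0 Slc32a1 UMIs (exact 95% interval 0 to 2.48% for the share of cells with a UMI, which does not bound the share expressing the gene), with Gad1 at 0.30 and Gad2 at 0.22 UMIs per 10000, while Slc17a7 stood at 3.21. Their summed level over 12 genes of dentate granule cells was 21.1 UMIs per 10000, against 9.56 in ExcitNeuron and 9.37 in Granule cells. The Mossy cells held 34.9 UMIs per 10000 over 8 mural cell genes and 1.53 over 10 mossy cell genes, against 0.626 and 2.05 in ExcitNeuron cells. The mossy cell sum does not rank the classes, since it was higher in ExcitNeuron cells in 1 of 4 replicates. Of the 47 Calb2 UMIs that ExcitNeuron cells added to it, 40 were in 1 cell of Sham replicate 4. The names are therefore used below as the annotation's names and not as identities.

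**Figure D2:**
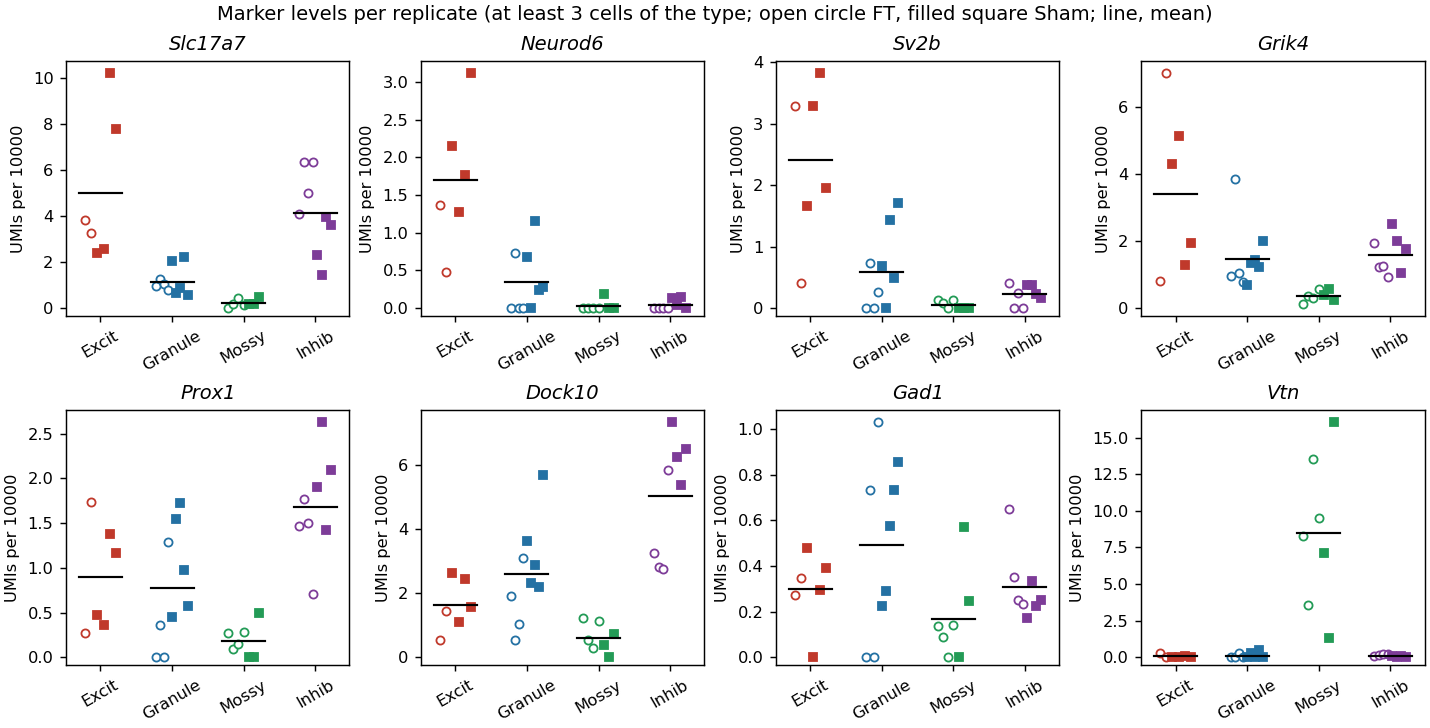
Levels of 8 marker genes in the 4 neuron classes, in UMIs per 10000 summed per replicate (open circle FT, filled square Sham, line mean; replicates of at least 3 cells of the class). Neurod6 is higher in ExcitNeuron than in InhibNeuron cells in all 6 replicates with both, Dock10 is higher in InhibNeuron cells, Gad1 is low throughout and Vtn is high in Mossy cells alone among these 4.

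ExcitNeuron cells were deep. They held a median of 6372 UMIs (881 to 19495) and 3317 genes, against 1402 UMIs in Granule, 4722.5 in Mossy and 5846 in InhibNeuron cells. Depth was tested within replicates holding at least 3 cells of both classes. It is not independent of the class, since the study's quality filter used it and the clusters came from the same counts. Under 1000 genes were detected in 66 of 119 Granule, 7 of 55 ExcitNeuron and 0 of 147 InhibNeuron cells. The tests therefore describe the cells as annotated, and how far filtering or assignment set these differences was not tested. ExcitNeuron cells exceeded Granule cells in 6 of 6 replicates, by 2.06 on the log2 scale for UMIs and 1.48 for genes (exact sign-flip permutation, two-sided, p = 0.03125 for each, the smallest possible, and adjusted p = 0.09375 over 6 comparisons). Over Mossy cells, with 4 replicates, no exact test can go below p = 0.125. The log2 difference there was 1.06 for UMIs (exact permutation p = 0.25) and 0.77 for genes, which were higher in ExcitNeuron cells in 4 of 4 replicates (exact permutation p = 0.125). The difference from InhibNeuron cells in UMIs (0.39, exact permutation p = 0.375) was within the spread. The higher depth over Granule cells moves with every share of cells with a UMI, which is why thinned shares stand beside the unthinned ones.

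The class held few RNAs of cytosolic ribosomal proteins. Under 2% of UMIs came from these genes in 44 of 55 ExcitNeuron cells (80.0%), a boundary set after the distribution was seen, as in 79.8% of Granule and 79.6% of InhibNeuron cells but 11.1% of Mossy cells. The 11 ExcitNeuron cells at or above 2% were spread over FT replicates 1, 2, 4 and 5 (1, 3, 1 and 1 cells) and Sham replicates 1 and 4 (1 and 4 cells). They had a median of 13247 UMIs against 6313.5 in the other 44 and supplied 28.2% of the class's UMIs.

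Against InhibNeuron cells, the class most like it in depth and transporter, ExcitNeuron cells were higher in single genes such as Khdrbs3 and Sv2b and lower in others such as Unc5d and Dock10. UMIs were summed per replicate and class and scaled to 10000, and a gene was counted as higher when its mean was at least 2, its ratio of means at least 2 after adding 0.1, and its level higher in each of the 6 replicates. Of 5303 genes with a mean of at least 0.5 in either class, 18 were counted as higher (0.339%) and 32 as lower (0.603%). The median log2 ratio over all of them was −0.03. Since clusters were made from these genes, no p is given. In FT replicate 2 all 5 InhibNeuron cells came from the first reaction, against 4 of the 26 ExcitNeuron cells. Class and reaction cannot be told apart in that replicate.

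The leading gene was Khdrbs3, an RNA-binding regulator of neurexin splicing. It stood at 2.47, 3.47, 9.07, 6.77, 3.24 and 3.51 UMIs per 10000 in ExcitNeuron cells of FT replicates 1 and 2 and Sham replicates 1, 3, 4 and 5, and between 0.251 and 0.909 in InhibNeuron cells of the same replicates. The classes did not overlap, and the log2 ratio of means was 2.90. The rule asked for the same direction in every replicate. Little or no overlap in counted genes, here and below, was therefore favoured by the selection.

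Sv2b stood at 3.29, 0.417, 1.67, 3.29, 3.83 and 1.95 UMIs per 10000 in ExcitNeuron cells of the same replicates and at 0 to 0.407 in InhibNeuron cells (log2 ratio 2.80). FT replicate 2 was low within the ExcitNeuron class and lay just above the highest InhibNeuron value. Neurod6 was higher in 6 of 6 replicates, at 1.70 ± 0.892 against 0.0559 ± 0.0707, and fell short of the required mean of 2. Slc17a7, at 5.01 ± 3.23 against 3.62 ± 1.69, was higher in 4 of 6 replicates and was not counted.

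The remaining leaders were Samd5, a SAM domain protein (log2 ratio 2.82), Pex5l, an auxiliary subunit of HCN channels (1.92), Homer1, a postsynaptic scaffold of metabotropic glutamate receptors (1.75), Slc8a1, a sodium-calcium exchanger (1.64), Unc13b, which primes synaptic vesicles (1.60), and Cpe, which processes neuropeptides (1.55). Pex5l and Unc13b did not keep this direction in the cells at or above 2% ribosomal UMIs, where only 2 replicates held both classes and the log2 ratios were −0.055 and −0.034.

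Lower in ExcitNeuron cells was Unc5d, a netrin receptor. It stood at 4.66, 7.29, 5.01, 5.12, 4.32 and 6.24 UMIs per 10000 in the 6 replicates, against 17.9, 12.7, 28.9, 24.6, 11.8 and 22.1 in InhibNeuron cells (log2 ratio −1.84), with no overlap. Dock10, a guanine nucleotide exchange factor on the granule cell list, was at 1.62 ± 0.795 against 5.27 ± 1.84 (−1.64). The other lowest genes were Fam19a2, a secreted neuronal protein (−2.27), Adcy1, a calcium-stimulated adenylyl cyclase (−1.75), Pitpnm2, a phosphatidylinositol transfer protein (−1.72), Ccdc85a (−1.72), Pde7b, a cyclic AMP phosphodiesterase (−1.61), and Zfpm2, a cofactor of GATA transcription factors (−1.57).

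By list, 1 of 7 tested dentate granule genes was counted as lower (Dock10) and 0 of the 7 had a log2 ratio above 0, with a list median of −1.12. Their summed level was 8.02 UMIs per 10000 against 19.6 and was lower in 5 of 6 replicates. Prox1 was lower in all 6, at 0.900 ± 0.609 against 1.88 ± 0.448, below the level required. Of 9 glutamatergic genes, 1 was higher (Sv2b) and the median was 0.16. Over 17 glutamate receptor genes the median was 0.10. The CA3 pyramidal list gave 0 of 3 counted with a median of 0.92, and its kainate receptor gene Grik4 was higher in 5 of 6 replicates, at 3.41 ± 2.45 against 1.75 ± 0.54. The calcium signalling list gave 1 of 16 higher (Homer1), and the lists of GABA-A receptors (10 tested), serotonin receptors (4) and potassium and sodium channels (15) gave 0.

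Against Granule cells, ExcitNeuron cells were higher in Slc17a7 and in some glutamate receptor genes, and 16 ribosomal protein genes were among those lower. Of 5260 genes, 71 were counted as higher (1.35%) and 43 as lower (0.817%), with a median log2 ratio of 0.24 over all genes. Without Sham replicate 3 the number higher was 123, and without FT replicate 1 or without Sham replicate 1 the number lower was 87.

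Slc17a7 was among those counted. It stood at 3.84, 3.26, 2.39, 2.56, 10.2 and 7.80 UMIs per 10000 in ExcitNeuron cells of FT replicates 1 and 2 and Sham replicates 1, 3, 4 and 5, and at 0.959, 1.28, 2.04, 0.863, 2.20 and 0.570 in Granule cells. The highest Granule value lay below the lowest ExcitNeuron value, and the log2 ratio was 1.85. In Sham replicate 4, a single cell held 64 of the 216 Slc17a7 UMIs of all ExcitNeuron cells (29.6%). Neurod6 was higher in 5 of 6 replicates, at 1.70 ± 0.892 against 0.515 ± 0.417.

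Atp1b1, a subunit of the sodium-potassium pump, ranged from 1.46 to 27.2 UMIs per 10000 in ExcitNeuron cells and averaged 2.17 ± 1.66 in Granule cells (log2 ratio 2.13). Other leading genes were Samd5 (2.41), Syp, the vesicle protein synaptophysin (2.13), Eno2, a neuronal enolase (1.95), the kinase Stk25 (1.88) and Khdrbs3 (1.84).

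By list, 3 of 9 glutamatergic genes were higher (Slc17a7, Nrgn and Chn1), all 9 had a log2 ratio above 0 and the median was 1.41. Of 18 glutamate receptor genes, 4 were higher: the AMPA receptor subunit Gria2 (26.5 ± 8.92 against 13.1 ± 5.65) and the NMDA receptor subunits Grin1 (6.27 ± 2.40 against 2.93 ± 1.10), Grin2a (11.3 ± 3.83 against 5.61 ± 2.54) and Grin2b (10.0 ± 3.39 against 4.55 ± 1.95), with a list median of 0.57. Of 16 calcium signalling genes 3 were higher (Nrgn, Ncald and Chn1), and of 15 vesicle release genes 1 (Syp). The dentate granule list gave 0 of 6, with a median of −0.23.

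Of the 43 genes lower in ExcitNeuron cells, 16 encode cytosolic ribosomal proteins and 16 carry placeholder names. Tubb2b, a tubulin of young neurons, led them at 0.201 ± 0.225 against 4.67 ± 7.45 (log2 ratio −3.99), where Granule cells of FT replicate 2 alone stood at 19.4 and those of the other replicates between 0.453 and 5.39. It was the 1 gene counted of 5 tested on the immature neuron list, whose median was −1.92. Ptma, the chromatin protein prothymosin alpha, had a ratio of −2.60, and Rpl39, Rpl18, Rps4x, Rps7, Rpl36 and Rpsa between −2.07 and −1.76. These lower calls moved with the ribosomal share: in cells under 2% ribosomal UMIs, 5 genes were lower, 0 of them among the 43, while 28 of the 71 higher genes were counted again. Hemoglobin RNA, most abundant in red blood cells, was also far apart without being counted, with Hba1 at 916, 354, 259, 2.01, 480 and 0.570 UMIs per 10000 in Granule cells of the 6 replicates and at most 2.74 in ExcitNeuron cells.

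Against Mossy cells the difference was broad. Over the 4 replicates with 3 cells of both classes (FT 1 and 2, Sham 1 and 4), 501 of 5957 genes were higher in ExcitNeuron cells (8.41%) and 505 lower (8.48%). The classes came in part from different reactions. In FT replicate 2 the first reaction gave 15 of 17 Mossy but 4 of 26 ExcitNeuron cells. In Sham replicate 1 it gave 5 of 9 Mossy and 0 of 6 ExcitNeuron cells. Class and reaction cannot be fully told apart in those replicates. Several members of the fixed neuronal lists were among the higher genes. The genes that follow are those with the highest log2 ratios, whether or not they are on a list. Epha6, an ephrin receptor, stood at 10.1, 6.25, 23.9 and 10.3 UMIs per 10000 against 0 to 0.385 (log2 ratio 5.51), and Arpp21, a cyclic AMP regulated phosphoprotein, at 4.11, 5.83, 9.07 and 5.30 against 0 to 0.138 (5.30). CAMK2A, a kinase of the postsynaptic density, was at 7.50 against 0.277 (4.34). Scg5, a chaperone of a prohormone convertase (4.70), Snhg11, a long non-coding RNA (4.63), Samd5 (4.46), Syp (4.45) and Scn3b, a sodium channel subunit (4.39), followed.

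Of 18 glutamate receptor genes tested against Mossy cells, 12 were higher, with a median log2 ratio of 3.07. Also higher were 5 of 8 general neuron genes, 6 of 16 vesicle release genes, 8 of 17 calcium signalling genes and 6 of 15 potassium and sodium channel genes. The calcium signalling and glutamatergic lists name Camk2a, which the count data spell CAMK2A. Counts over these lists leave that gene out in every comparison. On the CA3 list 2 of 3 were higher, Grik4 (3.35 against 0.281) and Cpne4 (3.64 against 0.685). The mossy cell list gave 0 of 2.

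The genes lower than in Mossy cells included 76 ribosomal protein genes of 91 tested, beside the low-ribosomal shares of 80.0% and 11.1% given above, and 125 with placeholder names. All 5 tested endothelial genes and 5 of 8 mural genes were lower, among them Flt1, a VEGF receptor (0.999 against 13.7), and Vtn, a pericyte gene (0.0931 against 8.75). Of 9 activity-regulated genes 5 were lower (Fos, Fosb, Nr4a1, Dusp1 and Btg2), with a summed level of 5.52 against 55.9 over the list. Fosb stood at 0, 0.0695, 0 and 0 UMIs per 10000 in ExcitNeuron cells and between 8.39 and 15.1 in Mossy cells. The transcription factor gene Klf4 and the contractile gene Myl9 were at 0 in all 4 replicates of ExcitNeuron cells, against means of 8.53 and 5.37, and so was Cyr61, against 7.18. Apold1, a vascular gene, Hspb1, a small heat shock protein, Higd1b, a pericyte gene, and Vim, an intermediate filament, completed the lowest named genes, with Vim at 0.0593 against 7.66.

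**Figure D3:**
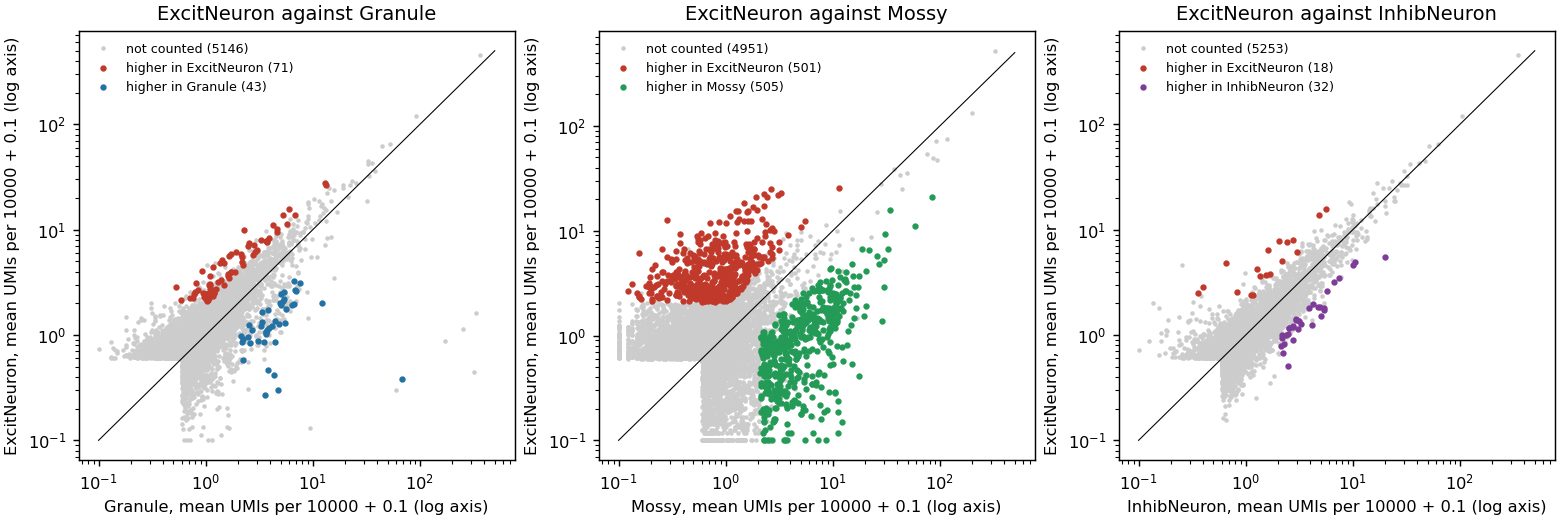
Mean level per gene in ExcitNeuron cells (vertical) against Granule, Mossy and InhibNeuron cells (horizontal), in UMIs per 10000 with 0.1 added, on log axes; each point is a gene, coloured where it met the rule for a higher or lower gene, and the line marks equal levels. The InhibNeuron panel holds the fewest coloured points (18 and 32) and the Mossy panel the most (501 and 505).

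In all 3 comparisons 8 genes were higher in ExcitNeuron cells: Samd5, Pex5l, Dclk1, Schip1, Slc8a1, Khdrbs3, Sez6 and Epha6. Lower in all 3 were 3 genes, Rpl32.1, Rps15 and an unnamed locus. The comparisons share the same ExcitNeuron cells, so these counts are not independent.

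Genes of pyramidal and dentate fields occurred side by side in the class. Over the 6 replicates with at least 3 cells, the CA3 gene Grik4 stood at 0.823, 7.01, 4.30, 5.12, 1.28 and 1.95 UMIs per 10000 and was highest in FT replicate 2. Prox1 ranged from 0.274 to 1.74, again highest in FT replicate 2. The CA1 genes Fibcd1 and Wfs1 averaged 0.39 and 0.13, and the granule cell gene C1ql2 and the CA2 gene Amigo2 had 0 UMIs.

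Cells under and at or above 2% ribosomal UMIs differed within replicates. In the 4 replicates with both (FT 1 and 2, Sham 1 and 4), the richer cells were higher in 4 of 4 in Snap25, a SNARE protein of vesicle fusion (24.9 against 6.63 UMIs per 10000), and in the calmodulin gene Calm2 (17.8 against 3.33). The poorer cells were higher in 4 of 4 in the metabotropic glutamate receptor Grm5 (20.2 against 1.69), the potassium channel Kcnd2 (27.6 against 4.97), the AMPA receptor subunits Gria1 (26.3 against 9.50) and Gria2 (26.6 against 14.3), the vesicle calcium sensor Syt1 (24.7 against 8.86), the calcineurin subunit Ppp3ca (20.7 against 9.32) and Grik4 (3.93 against 1.34). Slc17a7 averaged 12.3 in the richer and 2.56 in the poorer cells and was higher in the richer in 3 of 4 replicates, whereas Neurod6, at 0.95 and 1.34, split 2 to 2. The richer side was 1 cell in FT replicate 1 and 1 cell in Sham replicate 1. The cell of Sham replicate 1 held 904 UMIs, so 1 UMI in it counts as 11.1 per 10000 and a 0 in it says little. Its 2 Slc17a7 UMIs gave the highest of the 4 richer values, 22.1.

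**Figure D4:**
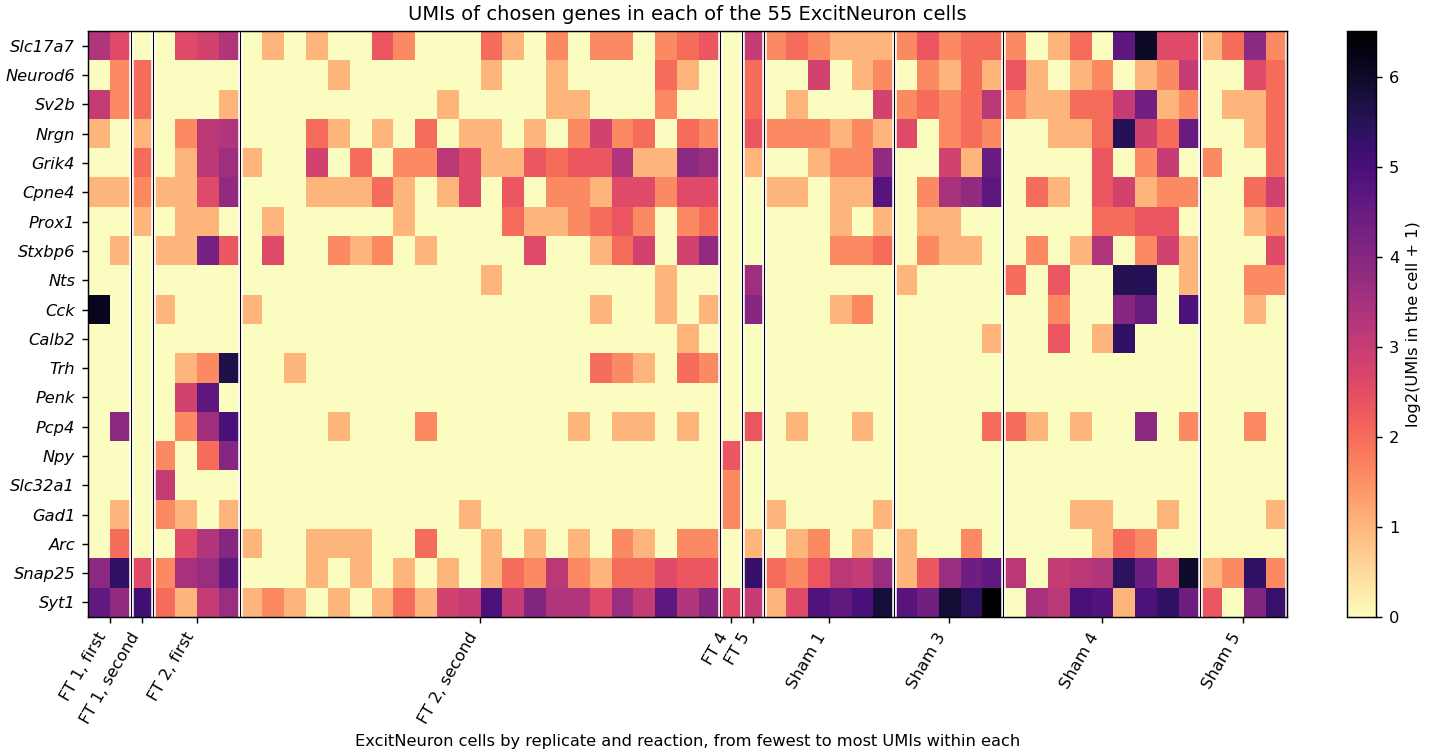
The 55 ExcitNeuron cells as columns and 20 genes as rows, coloured by log2(UMI count + 1). Slc17a7 occurs in 40 cells and Neurod6 in 24, while most UMIs of Nts, Trh, Cck, Calb2 and Penk lie in 1 to 3 cells each.

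Most UMIs of several neuropeptide genes sat in few cells. Of 160 Cck UMIs, 69 were in 1 cell of FT replicate 1. Of 117 Nts UMIs (neurotensin, a subicular and cortical gene), 46 and 45 were in 2 cells of Sham replicate 4, and the 3 highest cells held 87.2%. Calb2, which encodes the calcium buffer calretinin, had 40 of its 47 UMIs in 1 cell of Sham replicate 4. All 64 Trh UMIs (thyrotropin-releasing hormone) were in 9 cells of FT replicate 2, with 49 in 1 of them, and all 30 Penk UMIs (enkephalin) in 2 cells of that replicate. The 11 cells at or above 2% ribosomal UMIs, with 28.2% of the UMIs, held 90.6% of Nts, 81.3% of Trh, 85.1% of Calb2 and all of Penk, but 50.0% of Cck.

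Arc, a synaptic gene induced by activity, was detected in 25 of 55 ExcitNeuron cells (45.5%), against 3.36% of Granule, 4.76% of InhibNeuron and 14.0% of Microglia1 cells. At 1500 UMIs the shares were 24.5%, 1.72%, 0.68% and 5.94%. The Mossy share is not given here, so Arc is not called particular to ExcitNeuron cells. Over the activity-regulated list that holds Arc, Mossy cells had the higher sum (55.9 against 5.52 UMIs per 10000). Arc was not among the 5 genes of that list counted as lower than in Mossy cells. Of the 25 cells, 15 were from FT replicate 2, where the level was 3.19 UMIs per 10000, against 0 to 0.955 in the other replicates of at least 3 cells. The receptors of serotonin, the transmitter whose reuptake fluoxetine blocks, were low: Htr4 at 2.28 ± 1.75, Htr2a at 1.50 ± 0.933, Htr7 at 1.09 ± 0.63 and Htr2c at 0.99 ± 0.78 UMIs per 10000 (SD, n = 6). These levels overlap, and Htr4 was 5.42 in FT replicate 2 and 0.274 to 2.73 in the others.

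The 22 cells of the second reaction of FT replicate 2 made up 40% of the class, so they were set beside the 19 Sham cells that were also under 2% ribosomal UMIs. Their median depth was 3369 UMIs against 8396, which bears on every share. Neurod6 was detected in 5 of them (22.7%) against 13 (68.4%), Sv2b in 4 (18.2%) against 15 (78.9%) and Slc17a7 in 12 (54.5%) against 17 (89.5%). Per 10000 UMIs, which allows for depth, Neurod6 was 0.689 against 1.75, Sv2b 0.492 against 2.28 and Slc17a7 2.66 against 2.98. In the other direction, Grik4 was 7.97 against 3.62, Prox1 2.26 against 0.818 and Htr4 5.41 against 1.99. These are values of 1 reaction and carry no test.

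The treatment comparison asked whether fluoxetine changed the number or the RNA of these cells. The share of ExcitNeuron cells was 4.27% ± 5.98 (SD, n = 4) in FT and 3.54% ± 2.52 (n = 5) in Sham, a difference of 0.723 percentage points (exact permutation test, two-sided, p = 0.881). The sign changed when 1 reaction was left out: without the second reaction of FT replicate 2 the difference was −1.72 points (exact permutation p = 0.262). It was −2.25 without FT replicate 2 and −0.164 without Sham replicate 2. Fewer cells in the tissue and fewer recovered cells cannot be told apart here.

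Quality measures were compared over the 2 FT and 4 Sham replicates with at least 3 cells, where no exact test can go below p = 0.0667. The median share of mitochondrially encoded UMIs was 7.19% and 3.29% in FT replicates 1 and 2, and 1.48%, 2.23%, 2.89% and 1.32% in Sham replicates 1, 3, 4 and 5. Both FT values lay above all Sham values (difference 3.26 points, exact permutation p = 0.0667, adjusted p = 0.2 over 3 measures). The low-ribosomal share (−7.16 points) and the median UMIs per cell (−1522) did not differ beyond the spread (exact permutation p = 0.667 for each).

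For genes, UMIs of ExcitNeuron cells were summed per replicate, and edgeR's quasi-likelihood F-test compared 4 FT replicates (3, 26, 1 and 1 cells) with 4 Sham replicates (6, 5, 9 and 4 cells). Sham replicate 2, with no such cell, could not enter. Calls needed a p, adjusted by Benjamini and Hochberg's method, no larger than 0.2 and a log2 fold change of 0.32 or more in size. Of 4310 genes, 5 were higher in FT (0.116%) and 2 were lower (0.0464%). At an unadjusted p under 0.05 there were 165.

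Ndst3, which modifies heparan sulfate, was the 1 called gene whose groups did not overlap. It stood at 0.548, 0.139, 0 and 0 UMIs per 10000 in FT replicates 1, 2, 4 and 5, and at 2.86, 2.19, 3.34 and 3.90 in Sham replicates 1, 3, 4 and 5 (log2 fold change −3.57, SE 0.975, edgeR adjusted p = 0.151). Over all genes tested, the groups did not overlap in 205 (4.76%). With each of the 8 replicates left out in turn, with replicates of at least 3 cells, with genes of any UMI, with replicate number as a block and with DESeq2, its log2 fold change stayed between −4.47 and −3.34, but the call was lost each time (adjusted p 0.313 to 0.999 in edgeR, 0.400 in DESeq2). The call was also lost without the 2 cells with Slc32a1 UMIs (log2 fold change −3.47, edgeR adjusted p = 0.336). It was kept without the second reaction of FT replicate 2 (edgeR adjusted p = 0.123). At the depth of FT replicate 4, which gave 1244 UMIs in all, a level of this size is not detectable.

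Further calls, named here after their values were seen, had their high values in 1 to 3 replicates. Trh, at 4.45 UMIs per 10000 in FT replicate 2 and 0 in the other 7 replicates, had an edgeR adjusted p of 0.000258. Npy was at 1.39 in FT replicate 2 and 32.2 in FT replicate 4 (edgeR adjusted p = 0.0168). The single cell of FT replicate 4 is one of the cells with Slc32a1 UMIs, and the Npy values are given only with those cells included. Nrn1, an activity-induced membrane protein, was at 1.92, 5.63, 0 and 2.15 in FT against 0 to 0.390 in Sham (3.71, SE 0.862, edgeR adjusted p = 0.0250). The tachykinin gene Tac3 was at 5.76, 1.18, 0 and 0 against 0 to 0.366 (3.46, adjusted p = 0.0746). Calb2 was lower in FT (edgeR adjusted p = 0.0807), where 40 of its 46 Sham UMIs came from 1 of the 9 cells of Sham replicate 4.

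The calls changed with the settings. DESeq2 made 0 calls (smallest adjusted p = 0.400). In edgeR there were 0 calls without FT replicate 2 and 0 without Sham replicate 4. Without the 2 cells with Slc32a1 UMIs there were 1 higher and 0 lower, and without the second reaction of FT replicate 2 there were 20 and 15.

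The genes that mark the class did not pass the test. Slc17a7 had a log2 fold change of −0.73, Neurod6 of −0.97 and Sv2b of −0.79, and Arc of 1.66 (edgeR adjusted p = 0.997 for each). By list, 0 of 17 glutamate receptor genes (median log2 fold change −0.92), 0 of 8 glutamatergic genes (−0.78), 0 of 15 potassium and sodium channel genes (−0.82) and 0 of 4 serotonin receptor genes (−0.03) were called, against a median of −0.17 over all genes. Of 17 tested genes that the study had named in other comparisons, 0 were called. The study named Otub1, Trim28 and Sirt2 of that list from bulk RNA-seq, and the rest of the list was chosen on these samples.

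**Figure D5:**
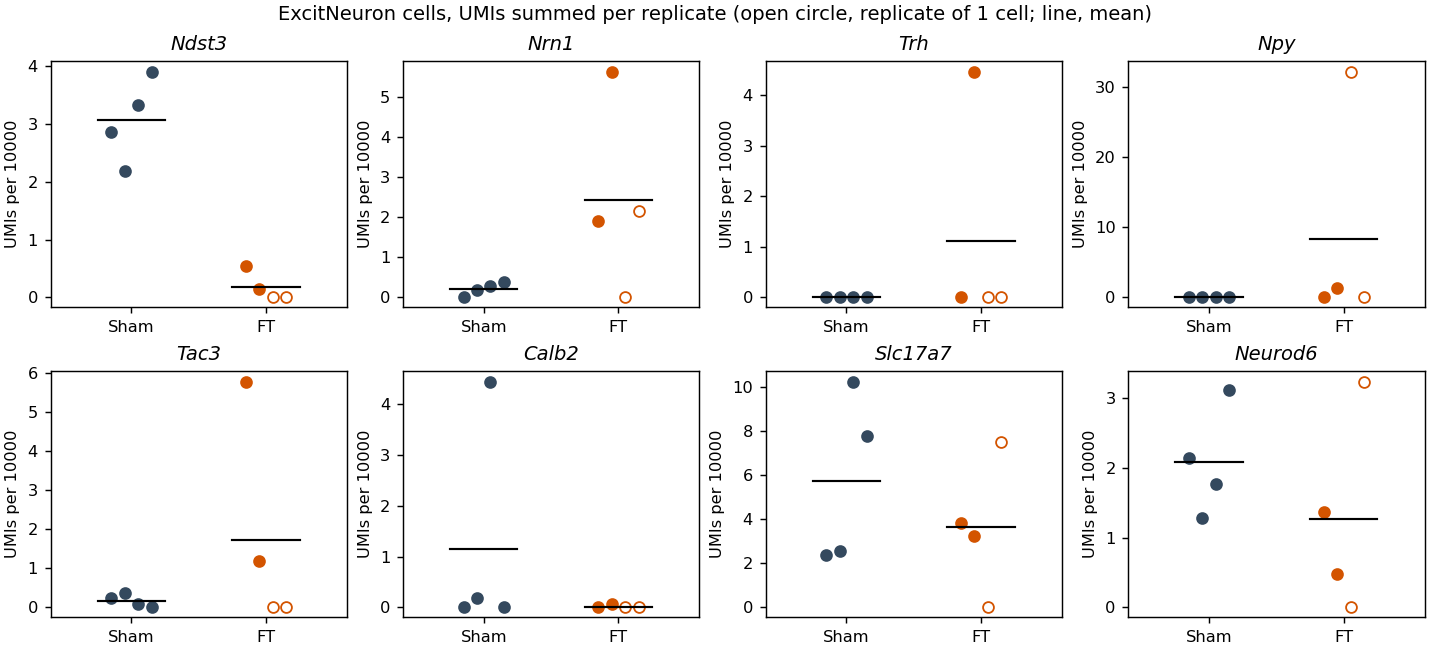
Levels of 8 genes in ExcitNeuron cells by treatment, in UMIs per 10000 summed per replicate (open circles, replicates of 1 cell; lines, means). Ndst3 separates the groups, Trh is above 0 in 1 FT replicate, the high Npy value belongs to an FT replicate of 1 cell, the high Calb2 value to Sham replicate 4, and Slc17a7 and Neurod6 overlap.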

How the data were processed

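The authors sequenced 10x Genomics 3′ libraries of micropunched tissue and made gene counts with Cell Ranger on rn5, per the submitters' processing notes, and clustered and annotated cells with Seurat 3. The deposited dorsal table holds raw UMI counts of 19127 genes in 1289 cells, and the deposited annotation, kept in other per-cell columns, gives cell type and reaction. The study's stated filter (at least 1000 genes, at most 20000 UMIs, at most 25% mitochondrial UMIs) would leave 967 of these cells and 48 of the 55 ExcitNeuron cells, so all deposited cells were kept. No doublet caller was run. Groups, replicates and reactions came from the labels, and reaction order from the reaction names. All 16 pairs of replicates within a group differed beyond sampling noise (chi-square per degree of freedom 3.03 to 13.5).

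Counts were summed per replicate and class. Class comparisons used replicates with at least 3 cells of both classes, genes averaging 0.5 UMIs per 10000 or more, and the rule given in the text. FT and Sham were compared with edgeR 4.0.16 (quasi-likelihood, TMM) at the limits given in the text, with DESeq2 1.42.0 as an alternative. On simulated data with 178 genes changed by a log2 of 3, edgeR recovered 89.9% and 13.5% of its calls were false. The simulation gave all replicates the same spread, so these rates need not hold for the data, where FT replicates 4 and 5 held 1 cell each. Shares, depth and quality were compared by exact permutation over replicates. Shares of cells with a UMI were also taken after thinning cells to 1500 UMIs. Exact binomial intervals and floors (3 counts) cover counting error only. The named genes are the 8 highest and 8 lowest log2 ratios per class comparison and, for treatment, up to 3 called genes in each direction with separate groups. Unnamed loci were passed over, and some genes that the rule or the lists hold are not reported here. Members of fixed lists were named beside them, and others after their values were seen, such as Hba1 and the genes compared between reactions or ribosomal classes. The cells, lists and tests were chosen with earlier results of these data known. Libraries were not stated to be counted by strand, and ribosomal protein and hemoglobin genes have near-identical copies, so their values are uncertain.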

Additional observations from a re-analysis of the deposited data

Results flagged for a closer look

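Groups of 4 to 10 replicates were searched for a highest or lowest value far from the rest (Dixon's test at 95%), and 13 of 79 groups were marked, where chance marks about 1 in 20. FT replicate 2 was the extreme value in 8 of them. Its share of ExcitNeuron cells was 13.2%, far above the other FT replicates. Its ExcitNeuron cells were shallower than its InhibNeuron cells, with log2 ratios of −1.55 for UMIs and −1.13 for genes. All 5 of those InhibNeuron cells came from the first reaction, and 22 of the 26 ExcitNeuron cells from the second. Class and reaction cannot be told apart in that contrast. The 4 ExcitNeuron cells of the first reaction had a median of 10412 UMIs. In FT replicate 2, Trh was at 4.45, Npy at 1.39, Penk at 2.08 and Arc at 3.19 UMIs per 10000, above all other replicates of at least 3 cells. The log2 ratio of Pde7b over InhibNeuron cells was −0.15 in that replicate, nearer to 0 than elsewhere.

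The other marked values were Cck at 18.9 UMIs per 10000 in FT replicate 1, Nts at 9.72 and Calb2 at 4.42 in Sham replicate 4, the log2 ratio of Rpsa over Granule cells in Sham replicate 5 (−3.70) and that of Scn3b over Mossy cells in Sham replicate 4 (5.65). Cck, Nts and Calb2 owe these values to 1 or 2 cells each.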

How the results depend on the processing

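Of 720 alternative values for 48 named genes, 669 stayed within the replicate spread on the same side, 45 moved and 6 reversed. In cells under 2% ribosomal UMIs, Ptma (1.01), Rpl39 (0.20), Rps4x (0.085) and Rps7 (0.039) reversed over Granule cells, and in cells at or above 2%, Pex5l (−0.055) and Unc13b (−0.034) reversed over InhibNeuron cells. The cause was not tested.

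Counts moved with the settings. For higher and lower than Granule (71 and 43), requiring 1 cell gave 22 higher, 5 cells 79 lower, a pseudocount of 1 25 higher, a level of 1 142 higher, cells at or above 2% ribosomal UMIs 251 and 289, and cells under 2% 38 and 5; leaving out 1 replicate gave 70 to 123 and 37 to 87. For Mossy (501 and 505), 1 cell gave 85 and 215, a level of 1 gave 1017 and 856, and leaving out 1 replicate gave 486 to 565 and 509 to 563. For InhibNeuron (18 and 32), 1 cell gave 7 higher, 5 cells 29 higher, a pseudocount of 1 10 and 9, a level of 1 37 and 69, cells at or above 2% 108 and 140, and cells under 2% 35 higher; leaving out 1 replicate gave 19 to 27 and 29 to 44. The comparison with Mossy in cells under 2% could not be made.

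UMIs over Granule were 2.18 and genes 1.57 with at least 5 cells (exact permutation p = 0.125 for each, the smallest possible), and 1.80 to 2.41 and 1.27 to 1.77 with 1 replicate left out. Over InhibNeuron, UMIs were −0.11 and genes −0.26 with at least 1 cell, and genes −0.0097 with at least 5. The share difference ranged from −2.25 to 1.89 with 1 replicate left out, and was −1.72 without the second reaction of FT replicate 2 and −1.31 in first and only reactions, both chosen after seeing the data. The mitochondrial difference was 5.00 with at least 1 cell (exact permutation p = 0.0286). With 1 replicate left out, the low-ribosomal difference ranged from −18.1 to 3.74, reversing without FT replicate 1, and that of UMIs from −5834 to 2790, reversing without FT replicate 2 and without Sham replicate 4 (47.5).

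For FT against Sham genes (5 and 2), replicates of at least 3 cells gave 1 and 0, any UMI 6 and 0, DESeq2 0 and 0, and cells at or above 2% 0 and 0; leaving out 1 replicate gave 0 to 4 and 0 to 2. Chosen after seeing the data, leaving out the second reaction of FT replicate 2 gave 20 and 15, and leaving out the 2 cells with Slc32a1 UMIs gave 1 and 0. With replicate number as the block (replicates 1, 4 and 5) there were 0 and 0, and the share difference was 1.09 (exact permutation p = 1). The numbers share no stated animal, litter or day, same-numbered samples correlated at 0.148, 0.220 and 0.050, and 4 of 6 samples correlated best with their own number. The fit with at least 5 cells per replicate was not run, since FT kept 1 replicate. The number of cells, 55 in all and 1 in each of 2 FT replicates, limits every treatment result.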
